A study of Mus musculus with 24 samples.

Results

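The comparison described here was between HC11 cells overexpressing a deletion mutant of the long noncoding RNA mPINC, LeGO-DCR, and HC11 cells carrying a GFP vector, LeGO-GFP. Its members were taken by label: the LeGO-DCR arrays 1 to 3 and the LeGO-GFP arrays 1 to 3, which are 6 of the 24 arrays of the series. HC11 is an established epithelial line of the mouse mammary gland. The DCR mutant lacks the terminal exons of mPINC1.0 and of mPINC1.6, and with them the conserved regions CR1 and CR2. A further group, LeGO-1.0/1.6 (3 arrays), overexpressed the full-length splice forms mPINC1.0 and mPINC1.6, and is used here to place the mutant. All 9 lentivirus samples received lactogenic hormones (hydrocortisone, insulin and prolactin, written +LH). The remaining 15 arrays were of HC11 cells transfected with a negative control siRNA (siNEG) or with siRNAs to mPINC (siPINC1.0/1.6, siPINC), without hormones (-LH, 2 arrays a group) or with them (+LH, 3 arrays a group). The question the study put to this comparison was whether mPINC needs its conserved regions to inhibit lactogenic differentiation. The overexpressing cells were transduced populations with random viral integration rather than engineered alleles, GFP was the only control for the virus, and no LeGO sample was measured without hormones, so a hormone response of the LeGO-DCR cells cannot be computed.

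During lactogenic differentiation, prolactin acts through its receptor, JAK2 and STAT5, and glucocorticoid through its own receptor, and together with insulin they switch on the genes of the caseins and other milk proteins. mPINC is a spliced noncoding RNA of the mammary gland that associates with Polycomb repressive complex 2 (PRC2), the complex that methylates histone H3 at lysine 27 and keeps developmental genes silent. HC11 cells keep features of mammary progenitors and make casein when treated with these hormones.

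Few probes separated LeGO-DCR from LeGO-GFP on these arrays, and those that did were mostly dim. Of 55681 probes tested with limma at an adjusted p below 0.05, 41 were called between LeGO-DCR and LeGO-GFP (0.0736%), 4 of them higher in LeGO-DCR (0.00718%) and 37 lower (0.0664%). The full-length RNAs gave 16857 calls against the same LeGO-GFP arrays (30.3%), 8068 higher (14.5%) and 8789 lower (15.8%). LeGO-DCR against LeGO-1.0/1.6 gave 16511 calls (29.7%), 8422 higher in LeGO-DCR (15.1%) and 8089 lower (14.5%). The median size of the log2 difference over all probes was 0.10 for LeGO-DCR against LeGO-GFP, and 0.33 for each of the other comparisons (a log2 difference of 1 is a 2-fold change). At an unadjusted p below 0.05 there were 2519 probes (4.52%) in LeGO-DCR against LeGO-GFP and 20349 (36.5%) in LeGO-1.0/1.6 against LeGO-GFP. The count of 41 was not stable: it was 0 in limma with a trended and robust prior, 1 in the t-test of the methods after adjustment, 69 without LeGO-GFP replicate 2, 17 and 20 without LeGO-1.0/1.6 replicates 2 and 3, and 15, 12 and 9 without LeGO-DCR replicates 1, 2 and 3.

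The precision of the arrays sets how small a difference could have been missed. Agilent's software marks a spot as well above background, and 24787 probes had that mark on all 6 arrays of LeGO-GFP and LeGO-DCR. Among these, 8 were called, the median size of the difference was 0.07, and the 95% interval of the difference lay within a 2-fold change either way for 23139 (93.4%) and within 1.4-fold for 16977 (68.5%). In the same probes LeGO-1.0/1.6 differed from LeGO-GFP by more than 2-fold at 4993, against 76 for LeGO-DCR.

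The arrays lay on 3 slides, and LeGO-GFP replicate 1 was the only lentivirus array that was not on slide 3; it shared slide 1 with all -LH arrays and with siNEG +LH replicate 1. On the first principal component of the 9 lentivirus arrays, which held 80.9% of the variance, LeGO-DCR and LeGO-GFP lay together and apart from LeGO-1.0/1.6. LeGO-GFP replicate 1 and LeGO-1.0/1.6 replicate 1 stood apart from their groups on the second (5.54%). The standard deviation of the log2 difference between arrays was 0.28 to 0.33 for pairs of LeGO-DCR arrays and 0.30 to 0.48 for pairs of LeGO-GFP arrays. It was 0.33 to 0.38 between LeGO-DCR and the LeGO-GFP arrays of slide 3, and 0.47 to 0.51 between LeGO-DCR and LeGO-GFP replicate 1. Between LeGO-DCR and LeGO-1.0/1.6 it was 1.11 to 1.21. Without LeGO-GFP replicate 1, which leaves slide 3 alone, LeGO-DCR against LeGO-GFP gave 36 calls. Only 15 of the 41 probes called with all 9 arrays were among them. The methods describe transduced cells that were expanded and stored frozen, and neither they nor the labels say whether the replicates came from separate transductions, so p-values measure the spread between these samples. Probes well above background numbered 26433 to 30752 on the LeGO-DCR arrays and 26020 to 29974 on the LeGO-GFP arrays.

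**Figure D1:**
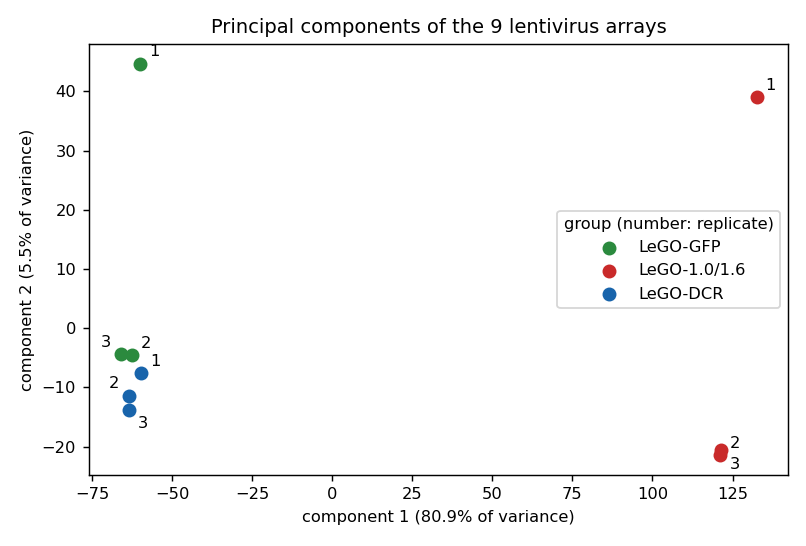
Each point is 1 of the 9 lentivirus arrays, numbered by replicate, on the first (80.9% of variance) and second (5.54%) principal component of the log2 normalized signals. The LeGO-DCR arrays lie beside LeGO-GFP replicates 2 and 3 and on the other side of the first component from LeGO-1.0/1.6.

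The targeted RNA was examined first. The array carries 1 probe named for mPINC, and its log2 signal was 6.07, 6.17 and 5.93 in LeGO-DCR, 6.38, 5.92 and 5.92 in LeGO-GFP, and 13.50, 13.48 and 13.34 in LeGO-1.0/1.6. The LeGO-DCR and LeGO-GFP values overlapped, and every LeGO-1.0/1.6 value was far above them. LeGO-DCR minus LeGO-GFP was -0.01 (SE 0.14, 95% interval -0.34 to 0.31, limma adjusted p = 1), and LeGO-DCR minus LeGO-1.0/1.6 was -7.38 (SE 0.14, adjusted p = 1.04e-07). The sources used here do not place this probe relative to the deleted exons, so it does not check whether the mutant RNA was made in the LeGO-DCR cells. No other probe carries the name. The study also measured mPINC in these cells by PCR. It reports that the LeGO-DCR cells overexpressed it relative to control cells, at a level broadly comparable to the full-length group. It further reports that the mutant RNA was pulled down with Polycomb proteins. Those measurements are not analysed here.

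Milk proteins are the classical products of lactogenic differentiation, and 0 of the 24 milk and secretion genes were called between LeGO-DCR and LeGO-GFP by limma, with 0 also below an unadjusted p of 0.05. Their median difference was 0.09 (range -0.12 to 0.78), beside 0.00 over all probes. In LeGO-1.0/1.6 against LeGO-GFP, 15 of the 24 were lower and 4 higher, beside 15.8% and 14.5% of all probes. In LeGO-DCR against LeGO-1.0/1.6, 16 were higher and 4 lower, beside 15.1% and 14.5% of all probes. The same shares stand beside the list counts that follow. Csn2 encodes beta-casein, the classical readout of HC11 differentiation. The log2 signal of Csn2 was 6.10, 6.25 and 7.09 in LeGO-DCR, 6.00, 6.21 and 6.24 in LeGO-GFP, and 1.89, 1.92 and 1.90 in LeGO-1.0/1.6. LeGO-DCR replicate 3 was above all other arrays, replicate 2 was level with the highest LeGO-GFP array and replicate 1 lay among the LeGO-GFP values, while on no LeGO-1.0/1.6 array was Csn2 well above background. The difference from LeGO-GFP was 0.33 (SE 0.24, 95% interval -0.23 to 0.89, limma adjusted p = 1), and the level in LeGO-DCR was at least 9.10-fold that in LeGO-1.0/1.6 (limma adjusted p = 6.77e-06). Here and below, "at least" marks a gene that no array of the dimmer group showed well above background, whose mean was then taken no lower than the dimmest signal that was well above background on those arrays.

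Because STAT5 binding sites in the Csn2 promoter carry the prolactin response, the 250 bases before its annotated start (RefSeq, build GRCm38.p6, chr5:87699426-87699675, minus strand) are shown 5′ to 3′ with the match to the STAT5 motif TTCNNNGAA in capitals. The motif reads the same on the other strand. The match begins at -93 from the start, and 2306 of 32851 promoters of this length (7.02%) held at least 1 match. The windows of Wap and Ltf held 0. A match is a string of letters, and no binding was measured.
Csn2: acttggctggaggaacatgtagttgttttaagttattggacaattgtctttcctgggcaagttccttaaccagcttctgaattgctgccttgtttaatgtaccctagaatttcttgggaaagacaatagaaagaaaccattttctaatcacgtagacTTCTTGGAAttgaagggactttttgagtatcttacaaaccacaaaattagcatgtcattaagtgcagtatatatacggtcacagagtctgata

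The other milk genes gave the same picture. Wap, whey acidic protein, read 4.61, 4.82 and 5.30 in LeGO-DCR and 4.25, 5.15 and 5.04 in LeGO-GFP, a difference of 0.10 (SE 0.30, limma adjusted p = 1) between overlapping groups. Ltf, the iron-binding milk protein lactoferrin, read 15.07, 15.12 and 14.92 in LeGO-DCR and 14.88, 14.97 and 14.88 in LeGO-GFP, again with overlap, a difference of 0.13 (95% interval -0.02 to 0.28, adjusted p = 1). In LeGO-1.0/1.6, Ltf read 10.63, 10.59 and 10.60, which is 4.44 below LeGO-DCR. Csn3, kappa-casein, was above every LeGO-GFP value in LeGO-DCR (6.09, 5.90 and 6.34 against 5.73, 5.43 and 5.89), and the difference of 0.42 had an interval of -0.37 to 1.22 (adjusted p = 1). Csn1s1, alpha-casein, had the largest difference of the list, 0.78 (interval -0.02 to 1.57), at a level near background with replicate values from 2.91 to 4.40 in LeGO-GFP and from 4.33 to 4.63 in LeGO-DCR. Pip, prolactin-induced protein, read 12.94, 13.10 and 13.24 in LeGO-DCR, 12.77, 13.03 and 13.11 in LeGO-GFP, and 4.75, 4.73 and 5.66 in LeGO-1.0/1.6. Glycam1 was well above background on none of the 9 arrays. The intervals of Csn1s1, Csn2 and Csn3 leave room for rises that these 6 arrays could not separate from replicate spread. By PCR, the study reports slightly more Csn2 in LeGO-DCR than in LeGO-GFP cells at both times of hormone treatment measured. It reports more Ltf at the earlier time only, unchanged Wap, and more of the domes that mark differentiation. How long the array samples were treated with hormones is not stated in the sources used here.

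**Figure D2:**
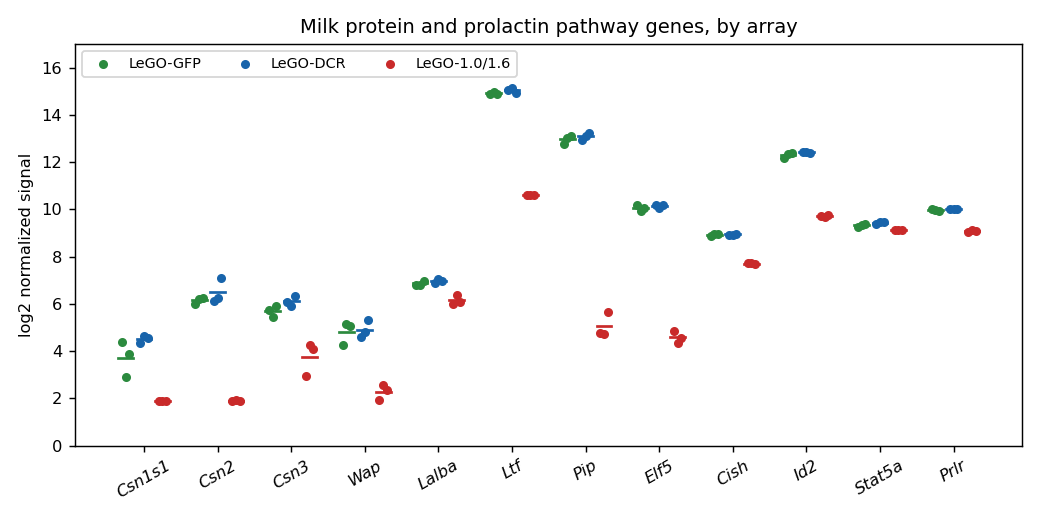
Log2 normalized signal of 12 milk protein and prolactin pathway genes on each of the 9 lentivirus arrays, with 1 point an array and a bar at each group's mean. LeGO-DCR (blue) lies with LeGO-GFP (green) at every gene, and LeGO-1.0/1.6 (red) lies lower, far lower at Csn2, Ltf, Pip and Elf5.

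Genes of the prolactin and glucocorticoid pathways did not pass the test between LeGO-DCR and LeGO-GFP either. Of 18 prolactin and STAT5 signalling genes 0 were called by limma, with a median difference of 0.03, and of 17 glucocorticoid-induced genes 0, with a median of 0.01, and 0 of either list were below an unadjusted p of 0.05. Elf5, the transcription factor that drives alveolar cell fate, read 10.17, 10.07 and 10.17 in LeGO-DCR, 10.16, 9.93 and 10.04 in LeGO-GFP, and 4.87, 4.33 and 4.53 in LeGO-1.0/1.6. LeGO-DCR and LeGO-GFP overlapped and LeGO-1.0/1.6 lay 5.56 below LeGO-DCR (limma adjusted p = 2.60e-07). Cish, a STAT5 target that feeds back on cytokine signalling, differed from LeGO-GFP by 0.02 (interval -0.08 to 0.12), and Prlr, the prolactin receptor, by 0.05 (-0.06 to 0.16). Stat5a was slightly higher on all LeGO-DCR arrays (9.40, 9.44 and 9.44 against 9.25, 9.34 and 9.39), a difference of 0.10 (-0.02 to 0.22) with adjusted p = 1. Id2, an inhibitor of helix-loop-helix factors needed for alveolar differentiation, had a difference of 0.12 (-0.02 to 0.26). Among glucocorticoid-induced genes, Fkbp5 differed by -0.02, Tsc22d3 by -0.02, Per1 by 0.08 and Zbtb16 by 0.06, all with adjusted p = 1. Against LeGO-1.0/1.6, LeGO-DCR was higher at 9 and lower at 5 of the prolactin genes, and higher at 9 and lower at 4 of the glucocorticoid genes, with Zbtb16 higher by 2.08 and Fkbp5 by 1.44.

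A list of 18 genes named by the study was examined next. Csn2, Wap and Ltf were its PCR readouts of differentiation. The others were singled out from these arrays, candidate mPINC targets among them, so their behaviour in LeGO-1.0/1.6 is not independent evidence. LeGO-DCR took no part in that choice. Of the 18, 0 were called by limma between LeGO-DCR and LeGO-GFP (1 at an unadjusted p below 0.05, median 0.03, range -0.15 to 0.42), and the 95% interval lay within 2-fold for 17. Against LeGO-1.0/1.6, 14 were higher in LeGO-DCR and 4 lower. Wnt4, a progesterone-induced ligand of alveolar development, read 11.41, 11.33 and 11.37 in LeGO-DCR, 11.58, 11.45 and 11.51 in LeGO-GFP, and 8.31, 8.53 and 8.41 in LeGO-1.0/1.6. The LeGO-DCR values lay just below those of LeGO-GFP (-0.15, adjusted p = 1) and well above the rest (2.95, adjusted p = 2.13e-07). Chi3l1, a secreted chitinase-like protein, read 8.24, 8.06 and 8.21 in LeGO-DCR, 7.97, 7.73 and 7.99 in LeGO-GFP, and 10.86, 10.81 and 10.73 in LeGO-1.0/1.6. LeGO-DCR was above LeGO-GFP without overlap, by 0.27 (interval 0.07 to 0.48), which did not pass (limma adjusted p = 0.869), and was 2.62 below LeGO-1.0/1.6. Edn1, the peptide endothelin 1, differed from LeGO-GFP by 0.01, Ednra, its receptor, by 0.03, Ly6a, the antigen Sca1, by -0.11, and Itgb3, the integrin CD61 of luminal progenitors, by 0.11. Dlk2, a Notch ligand homologue, read 10.21, 10.33 and 10.38 in LeGO-DCR and 10.40, 10.22 and 10.31 in LeGO-GFP. None of these 5 passed the test. The lipid and secretory genes Mal, Clu, Cp and Cidea differed by -0.03, 0.02, -0.11 and 0.09.

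PRC2 subunits did not pass the test between the mutant and GFP. Of 11 measured genes 0 were called by limma (1 at an unadjusted p below 0.05), with a median of -0.02, a range of -0.17 to 0.06, and all 11 intervals within 2-fold. Ezh2, the methyltransferase, read 10.28, 10.22 and 10.22 in LeGO-DCR, 10.34, 10.26 and 10.19 in LeGO-GFP, and 10.89, 10.85 and 10.83 in LeGO-1.0/1.6. The first groups overlapped (-0.02, interval -0.15 to 0.11), and LeGO-DCR was 0.62 below LeGO-1.0/1.6 (limma adjusted p = 0.000101). Suz12, the scaffold subunit, differed from LeGO-GFP by 0.04, Eed, which reads the methyl mark, by -0.01, and Jarid2, which helps recruit the complex, by -0.02 (interval -0.41 to 0.37). Rbbp4, a histone chaperone, was below LeGO-GFP on every LeGO-DCR array (13.46, 13.45 and 13.54 against 13.57, 13.67 and 13.69), a difference of -0.16 with adjusted p = 1. Transcript levels say nothing of where the complex sits, which was not measured on the arrays.

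Of 18 genes listed as neighbours of mPINC on its chromosome, 0 were called by limma between LeGO-DCR and LeGO-GFP (1 at an unadjusted p below 0.05, median -0.01). Igfbp5, an insulin-like growth factor binding protein of the involuting gland, read 16.81, 16.74 and 16.78 in LeGO-DCR, 16.50, 16.79 and 16.69 in LeGO-GFP, and 11.02, 11.22 and 11.32 in LeGO-1.0/1.6. Igfbp2, its relative, read 8.76, 8.86 and 9.03 in LeGO-DCR, 9.04, 8.85 and 8.97 in LeGO-GFP, and 5.78, 5.61 and 5.50 in LeGO-1.0/1.6. In each gene the LeGO-DCR and LeGO-GFP values overlapped and the full-length group lay far below. Mreg differed by -0.05 from LeGO-GFP while lying 3.79 below LeGO-1.0/1.6. The largest difference of the list was Gpbar1, a bile acid receptor, at -1.21 (4.75, 5.35 and 5.03 against 6.25, 6.22 and 6.28), with an interval of -2.25 to -0.16 and adjusted p = 1.

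Over all 32 gene and marker lists, 514 of 524 genes were on the array. Of these, 0 were called by limma between LeGO-DCR and LeGO-GFP, and 0 under each of 22 alternative settings, the t-test of the methods included, against 371 in LeGO-1.0/1.6 versus LeGO-GFP and 377 in LeGO-DCR versus LeGO-1.0/1.6. LeGO-1.0/1.6 versus LeGO-GFP called 30.3% of all probes, and LeGO-DCR versus LeGO-1.0/1.6 called 29.7%. Of the 24787 probes well above background on all LeGO-GFP and LeGO-DCR arrays, LeGO-1.0/1.6 versus LeGO-GFP called 14210. At an unadjusted p below 0.05, LeGO-DCR versus LeGO-GFP gave 25 of the 514 (4.86%, beside 4.52% of all probes). Its interval lay within 2-fold for 453. The median difference of each list in LeGO-DCR against LeGO-GFP lay between -0.35 (7 adipocyte markers, 5 of them well above background on no LeGO-DCR array) and 0.09 (milk).

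**Figure D3:**
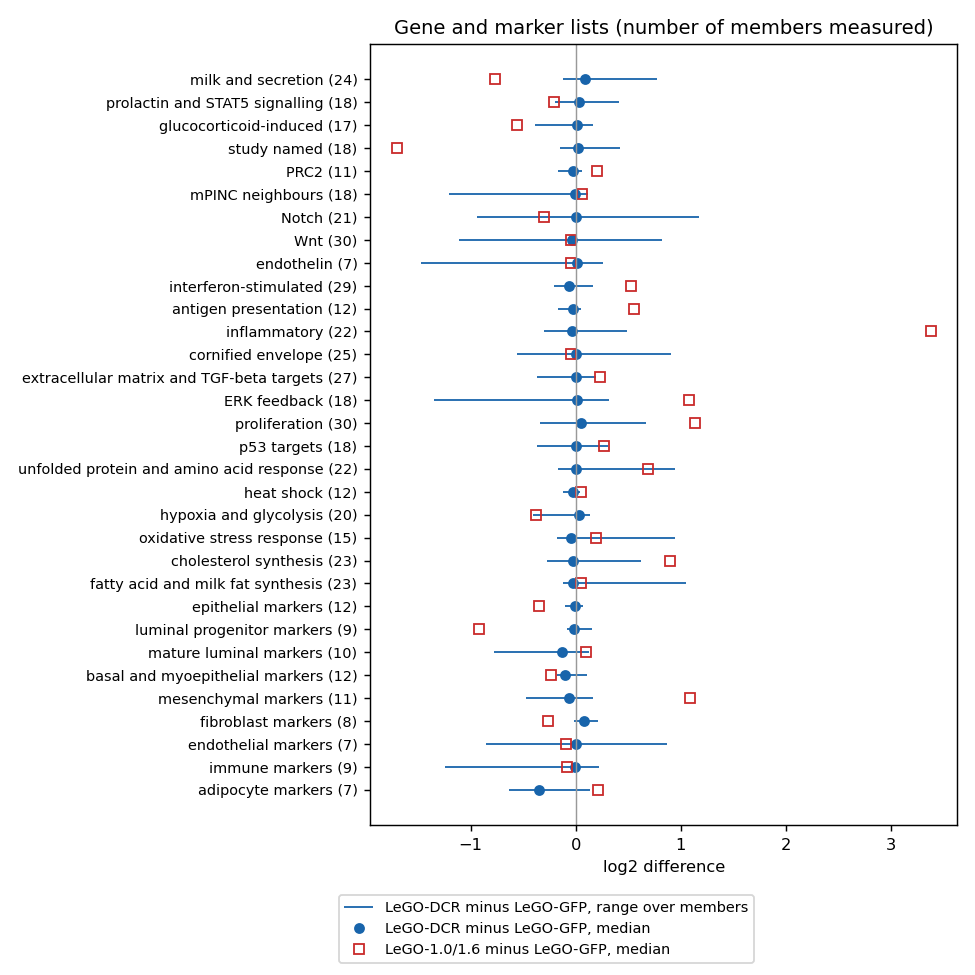
For each of the 32 lists, with its number of genes measured, the blue point is the median log2 difference of LeGO-DCR minus LeGO-GFP, the blue line its range over the genes, and the red square the median for LeGO-1.0/1.6 minus LeGO-GFP. Blue medians stay between -0.35 and 0.09, while red medians run from -1.70 (genes named by the study) to 3.38 (inflammatory genes); the LeGO-GFP arrays are shared by both.

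In several functional lists, chosen here after their values were seen, many genes differed between LeGO-DCR and LeGO-1.0/1.6. In these lists 0 were called by limma against LeGO-GFP. Over all probes, 15.1% were called higher and 14.5% lower in LeGO-DCR than in LeGO-1.0/1.6. Of 22 inflammatory genes, 18 were lower and 1 higher in LeGO-DCR than in LeGO-1.0/1.6, with a median of -3.48, against a median of -0.03 and 0 calls versus LeGO-GFP. Cxcl1, a neutrophil chemokine, read 9.43, 9.49 and 9.51 in LeGO-DCR, 9.59, 9.45 and 9.45 in LeGO-GFP, and 14.20, 14.17 and 14.06 in LeGO-1.0/1.6. LeGO-DCR thus lay with LeGO-GFP and 4.66 below LeGO-1.0/1.6 (limma adjusted p = 4.03e-08). Saa3, an acute phase protein, differed by -0.18 from LeGO-GFP and by -5.07 from LeGO-1.0/1.6, and Il6, a cytokine, by -0.14 and -3.69. Of 30 proliferation genes, 0 were higher and 23 lower in LeGO-DCR than in LeGO-1.0/1.6, with Top2a, a topoisomerase of dividing cells, lower by 2.19, and 0 were called against LeGO-GFP (median 0.05). Of 23 cholesterol synthesis genes, 21 were lower in LeGO-DCR than in LeGO-1.0/1.6 and 0 were called against LeGO-GFP (median -0.02). The ERK feedback genes gave 13 lower and 1 higher of 18 (Dusp4, a phosphatase induced by ERK, lower by 4.79), and 0 called against LeGO-GFP (median 0.02). Of 29 interferon-stimulated genes, 19 were lower and 3 higher in LeGO-DCR than in LeGO-1.0/1.6, and of 12 antigen presentation genes 9 and 2, with 0 called against LeGO-GFP in either.

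In the remaining functional lists, 0 genes were called by limma between LeGO-DCR and LeGO-GFP, with at most 4 a list at an unadjusted p below 0.05. Median differences were 0.01 for 21 Notch genes, -0.03 for 30 Wnt genes, 0.01 for 7 endothelin genes, 0.00 for 25 cornified envelope genes and 0.00 for 27 extracellular matrix and TGF-beta targets. They were 0.01 for 18 p53 targets, 0.01 for 22 genes of the unfolded protein and amino acid response, -0.03 for 12 heat shock genes, 0.03 for 20 hypoxia and glycolysis genes, -0.04 for 15 oxidative stress genes and -0.02 for 23 fatty acid and milk fat genes. Against LeGO-1.0/1.6, the unfolded protein list had 3 genes higher and 17 lower in LeGO-DCR. Notch3 and its target Hey1 lay 2.60 and 3.13 above LeGO-1.0/1.6 in LeGO-DCR while differing from LeGO-GFP by 0.06 and 0.04. Jag1, a Notch ligand, lay 3.25 below LeGO-1.0/1.6 and differed from LeGO-GFP by 0.01. The Notch target Hes1 was higher on every LeGO-DCR array (3.28, 3.24 and 3.37 against 2.35, 2.60 and 2.16), but was well above background on none of the 6 arrays, has no fold between the groups and did not pass (limma adjusted p = 0.802).

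Among all list genes, 9 reached an unadjusted p below 0.01 between LeGO-DCR and LeGO-GFP, and the lowest adjusted p was 0.337. That gene was Areg, amphiregulin, a ligand of the EGF receptor: 4.35, 4.22 and 4.27 in LeGO-DCR, 4.97, 4.85 and 4.75 in LeGO-GFP, and 10.03, 9.79 and 9.60 in LeGO-1.0/1.6. LeGO-DCR was below LeGO-GFP without overlap, at -0.58, and 5.53 lower than LeGO-1.0/1.6. Fosl1, an AP-1 subunit, read 2.54, 2.62 and 1.88 in LeGO-DCR, 2.96, 4.27 and 3.85 in LeGO-GFP (limma adjusted p = 0.57), and 7.69, 7.65 and 7.58 in LeGO-1.0/1.6; it was well above background on no LeGO-DCR and 1 LeGO-GFP array. Foxa1, a luminal transcription factor, was well above background on none of the 6 arrays, and Slc7a11, the cystine importer, on 1, so neither has a fold between the groups. Adm, the vasoactive peptide adrenomedullin, had -0.41 (7.19, 7.14 and 7.31 against 7.49, 7.64 and 7.73). The stress genes Trib3 (a pseudokinase) and Phgdh (serine synthesis) had 0.24 and -0.17, the replication gene Mcm3 0.18 and Phlda1 0.21, all with adjusted p of 0.352 or above.

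Cell type markers gave no call between LeGO-DCR and LeGO-GFP in any of 9 lists by limma, with 4 list entries at an unadjusted p below 0.05. The epithelial markers Epcam, Cdh1, Krt8 and Krt18 read between 12.17 and 14.03 on the 3 LeGO-DCR arrays, and the basal keratins Krt5 and Krt14 between 14.52 and 15.28. Epithelial markers well above background on all 3 arrays numbered 11 of 12 in LeGO-DCR and in LeGO-GFP, and the mean log2 signal over the list ran from 11.33 to 11.41 in LeGO-DCR and from 11.25 to 11.51 in LeGO-GFP. Kit, the receptor of luminal progenitors, read 14.21, 14.18 and 14.05 in LeGO-DCR, 14.13, 14.02 and 13.84 in LeGO-GFP, and 9.37, 9.32 and 9.44 in LeGO-1.0/1.6. Median differences from LeGO-GFP were -0.01 for epithelial, -0.02 for luminal progenitor, -0.13 for mature luminal, -0.10 for basal and myoepithelial, -0.06 for mesenchymal, 0.08 for fibroblast, 0.00 for endothelial and -0.01 for immune markers. Of the 8 fibroblast markers 6 were well above background on all LeGO-DCR arrays, of the 7 endothelial 2, of the 9 immune 4, and of the 7 adipocyte 1. The defining adipocyte gene Adipoq was above background on no array, and Ptprc, the leukocyte antigen CD45, on 2 of 3 LeGO-DCR and 1 of 3 LeGO-GFP arrays. In bulk RNA, fewer cells of a type and less RNA per cell cannot be told apart.

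Of the 41 probes called between LeGO-DCR and LeGO-GFP, 9 had a gene symbol, 15 were probes for intergenic regions and 17 had no name here. Over all 55681 probes, 16194 were for intergenic regions. Of the 41, 17 were well above background on all arrays of at least 1 of the groups. The named genes lower in LeGO-DCR were Tnfrsf13b, Ctsw, Banp, Gulo, Cyp2c67, Olfr545, Fam205a2 and Ephx4, and the named gene higher was Tas1r1. Tnfrsf13b encodes TACI, a B cell receptor of the TNF family. It read 4.31, 4.49 and 4.38 in LeGO-DCR, 5.82, 5.57 and 5.73 in LeGO-GFP, and 4.45, 4.45 and 4.44 in LeGO-1.0/1.6. The LeGO-GFP arrays were high and the others low, without overlap, at -1.31 for LeGO-DCR minus LeGO-GFP (SE 0.08, limma adjusted p = 0.00639). The second Tnfrsf13b probe gave -0.95 and was not called. On the siRNA arrays the median of the called probe was 5.74 without hormones and 4.43 with them. Ctsw, a protease of cytotoxic lymphocytes, read 4.47, 4.51 and 4.62 in LeGO-DCR, 5.73, 5.75 and 5.62 in LeGO-GFP, and 8.06, 8.21 and 7.98 in LeGO-1.0/1.6. Here the LeGO-DCR arrays were the lowest and LeGO-1.0/1.6 the highest (LeGO-DCR minus LeGO-GFP -1.17, SE 0.08, adjusted p = 0.00995; minus LeGO-1.0/1.6 -3.55). Banp, a nuclear matrix-associated DNA-binding protein and the brightest of the called genes, read 7.59, 7.53 and 7.44 in LeGO-DCR and 8.31, 8.22 and 8.27 in LeGO-GFP, a difference of -0.75 (SE 0.07, adjusted p = 0.0361). Its second, brighter probe gave 0.15, so the 2 probes of Banp disagree.

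The other named calls were small or dim. Tas1r1, a subunit of the umami taste receptor, read 5.82, 5.84 and 5.83 in LeGO-DCR, 5.31, 5.42 and 5.29 in LeGO-GFP, and 4.77, 4.74 and 4.82 in LeGO-1.0/1.6. It was the gene where LeGO-DCR was high, LeGO-GFP between and LeGO-1.0/1.6 low (LeGO-DCR minus LeGO-GFP 0.49, SE 0.05, adjusted p = 0.0478). Gulo, which makes ascorbate in mice, read 2.00, 1.91 and 1.90 in LeGO-DCR, 4.63, 4.70 and 3.96 in LeGO-GFP, and 3.85, 4.73 and 4.48 in LeGO-1.0/1.6, so that LeGO-DCR was the lowest of the lentivirus groups. The 9 siRNA +LH arrays were as low, with a median of 1.90 (range 1.88 to 3.98). It was at least 1.63-fold lower than in LeGO-GFP (adjusted p = 0.0478). Ephx4, an epoxide hydrolase family member, was well above background on no array of LeGO-DCR or LeGO-GFP, and has no fold between them. Cyp2c67, Olfr545 and Fam205a2 were well above background on no LeGO-DCR array and on 2 of 3 LeGO-GFP arrays, at least 1.42-fold (Olfr545) to 1.77-fold (Cyp2c67) lower in LeGO-DCR, and their further probes differed by -0.02 (Cyp2c67), -0.08 (Olfr545) and 0.04 to 0.10 (Fam205a2). Like 37 of all 41 called probes, the 15 intergenic probes were lower in LeGO-DCR. Those shown, chosen after their values were seen, lay in regions of build mm9 on chromosome 5 (chr5:125190100-125209625, plus strand), at 5.88, 5.91 and 5.95 in LeGO-DCR against 8.02, 7.44 and 7.73 in LeGO-GFP, and on chromosome 2 (chr2:156654675-156665430, minus strand), at 5.59, 5.99 and 5.67 against 7.60, 7.09 and 7.37. These 2 were the only called intergenic probes well above background on all arrays of both groups, with limma adjusted p of 0.0395 and 0.047. The difference at the first was -1.81 (interval -2.24 to -1.39). Their means in LeGO-1.0/1.6 were 6.18 and 5.46, also below LeGO-GFP.

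**Figure D4:**
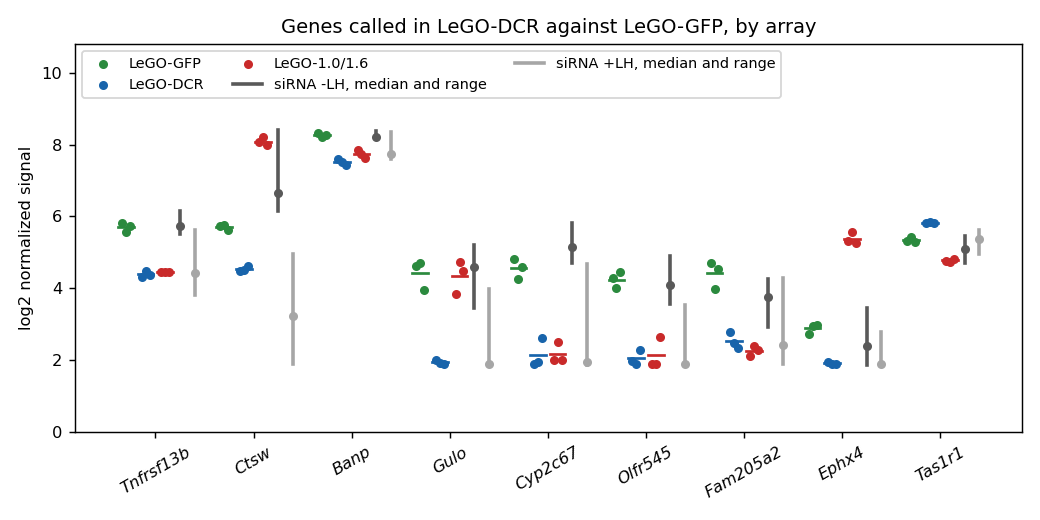
Log2 normalized signal of the 9 named genes called between LeGO-DCR and LeGO-GFP. Points are the 3 arrays of each lentivirus group with a bar at the mean, and grey lines give the median and range of the 6 siRNA -LH and 9 siRNA +LH arrays. At Tnfrsf13b, Cyp2c67, Olfr545 and Fam205a2 only LeGO-GFP is high among the lentivirus groups, and at Ctsw and Ephx4 LeGO-1.0/1.6 is the highest.

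The 37 probes called lower were mostly dim and, by their median, followed the arrays in an uneven way. The brightest, Banp, had means of 8.27 in LeGO-GFP and 7.52 in LeGO-DCR. The median log2 signal of the 37 was 2.02, 1.99 and 2.19 on the LeGO-DCR arrays and 4.63, 4.30 and 4.48 on the LeGO-GFP arrays, which had chosen them. On the LeGO-1.0/1.6 arrays it was 2.03, 2.05 and 2.16. On siRNA arrays, which had no part in the call, it was 4.45 to 4.72 on the 6 -LH arrays and 1.91 to 4.27 on the 9 +LH arrays. The -LH arrays all lay on slide 1, as did siNEG +LH replicate 1, which at 4.27 was the highest of the +LH arrays. All slide 1 arrays were therefore high, all slide 2 arrays lower (1.91 to 3.21), and on slide 3 LeGO-GFP replicates 2 and 3 were high beside 6 low arrays. Of the 37, 10 (27.0%, beside 5.02% of all probes) were also called lower with hormones at over 2-fold in siNEG cells, and 0 higher, but that comparison sets 2 slide 1 arrays against 1 from slide 1 and 2 from slide 2. Within slide 1 the siNEG medians were 4.45 and 4.61 without hormones and 4.27 with them. What sets the level of these probes was not tested.

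**Figure D5:**
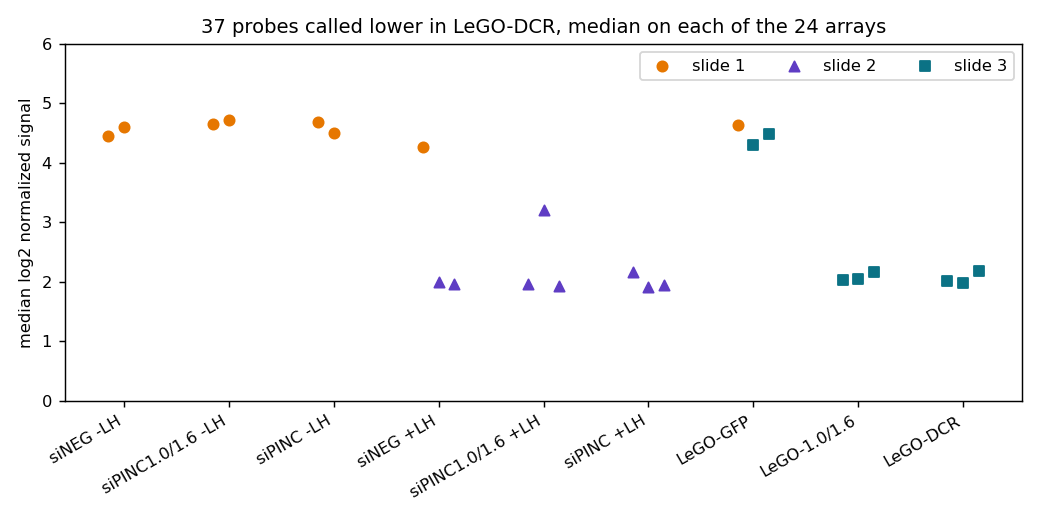
Median log2 normalized signal, over the 37 probes called lower in LeGO-DCR than in LeGO-GFP, on each of the 24 arrays, by group and with the slide as symbol. All 8 slide 1 arrays and LeGO-GFP replicates 2 and 3 of slide 3 lie between 4.27 and 4.72, and all others at or below 3.21.

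Below the adjusted threshold, a looser rule (p below 0.01 and a fold over 1.4, the limits the study set for genes opposite in knockdown and overexpression, here with limma's p and no adjustment) was met by 609 probes between LeGO-DCR and LeGO-GFP (1.09%), 162 higher in LeGO-DCR (0.291%) and 447 lower (0.803%). The t-test of the methods gave 398 (89 higher, 309 lower) and normexp background correction 181 (11 and 170). Probes well above background on all arrays of at least 1 lentivirus group gave 336 (70 and 266). The following are values and not calls. Col2a1, the chain of the type II collagen of cartilage, read 14.54, 14.65 and 14.80 in LeGO-DCR, 14.03, 14.13 and 14.12 in LeGO-GFP, and 8.39, 8.57 and 8.60 in LeGO-1.0/1.6. The LeGO-DCR arrays were the highest without overlap (0.57 above LeGO-GFP, SE 0.09, limma adjusted p = 0.158, and 6.14 above LeGO-1.0/1.6). Col9a1, a chain of the type IX collagen that coats type II fibrils, read 10.73, 10.73 and 10.92 against 10.28, 10.21 and 10.30 in LeGO-GFP and 4.42, 4.90 and 4.69 in LeGO-1.0/1.6, 0.53 above LeGO-GFP (adjusted p = 0.468), while its second probe gave 0.13. Col2a1 was also 4.62 higher with hormones than without in siNEG cells, and Col9a1 1.64 higher. Col23a1, a membrane collagen, was well above background on no LeGO-GFP array and at least 1.41-fold higher in LeGO-DCR (adjusted p = 0.679), with its other probes at 0.06 and -0.03. The other rises were Gm11543 (0.70), Irs3, an insulin receptor substrate (0.64), Adgrf3 (0.61), Zfp711 (0.57), Rtp2 (0.56), Tcp11l1 (0.54) and 4933402N22Rik (0.51), with adjusted p from 0.395 to 0.676. The second probe of Tcp11l1 went the other way (-0.34). The largest falls were dim: Olfr681, Vmn1r56, Tm4sf4, Asphd1, Tas2r131, Pcdha8, Tssk4 and Krtap4-16 were well above background on all LeGO-GFP arrays and on no LeGO-DCR array, at least 2.31-fold (Tm4sf4) to 4.18-fold (Tssk4) lower, with adjusted p from 0.068 (Tm4sf4) to 0.241 (Tas2r131). In LeGO-1.0/1.6, Tm4sf4 had a mean of 4.21 and was well above background on all 3 arrays. The others were about as low there as in LeGO-DCR, with LeGO-1.0/1.6 means from 2.08 (Olfr681) to 3.54 (Krtap4-16). At those genes only LeGO-GFP was high among the lentivirus groups. The second probes of Olfr681, Pcdha8 and Krtap4-16 gave -0.16, -0.03 and 0.37, so these genes rest on 1 probe each. Olfr609 (-2.65) read 8.71 on LeGO-GFP replicate 2, against 5.93 and 5.92 on the other arrays of its group. Ace, which cleaves angiotensin, had -2.21 (adjusted p = 0.502). At Olfr609 and Ace the LeGO-1.0/1.6 arrays were also low, with means of 3.99 and 3.99.

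Against the full-length RNAs, the genes with the largest differences in LeGO-DCR were ones at which it lay near LeGO-GFP. Scrg1, a secreted protein of chondrogenesis, read 13.18, 13.35 and 13.61 in LeGO-DCR, 13.02, 13.13 and 13.34 in LeGO-GFP, and 3.77, 3.17 and 2.46 in LeGO-1.0/1.6. LeGO-DCR was above LeGO-1.0/1.6 (limma adjusted p = 5.9e-07), where Scrg1 was well above background on 1 of 3 arrays and the measured difference of 10.25 is limited by the background, and it was 0.21 from LeGO-GFP with overlapping values. The keratins Krt23 and Krt15, Cnmd (chondromodulin, an inhibitor of vessel growth), Cyp2f2 (a cytochrome P450) and the chemokine Cxcl17 followed. Krt23 and Cnmd were at least 411-fold and 338-fold higher than in LeGO-1.0/1.6, Cyp2f2, Krt15 and Cxcl17 were 9.80, 9.74 and 8.72 higher on the log2 scale (well above background on 2, 2 and 3 LeGO-1.0/1.6 arrays), and these 5 differed from LeGO-GFP by -0.16 to 0.13. The largest falls were Lilrb4a, an inhibitory immune receptor, at least 373-fold lower in LeGO-DCR than in LeGO-1.0/1.6, the cornified envelope genes Sprr2d and Sprr2e (at least 127-fold and 86.0-fold), the cytokines Csf3 and Il1a (at least 82.0-fold and 76.9-fold), and mPINC itself. Those 5 genes were well above background on all LeGO-1.0/1.6 arrays and on no LeGO-DCR or LeGO-GFP array.

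Probes that respond to hormones were chosen on siNEG arrays alone, at an adjusted p below 0.05 and over 2-fold between +LH and -LH, which gave 2661 higher with hormones (4.78%) and 2795 lower (5.02%). Of the 2661 raised, 0 were called between LeGO-DCR and LeGO-GFP by limma (136, or 5.11%, at an unadjusted p below 0.05), the looser rule was met by 8 higher (0.301%) and 5 lower (0.188%), and the median difference was 0.02. Over all probes these shares were 4.52%, 0.291% and 0.803%. In LeGO-1.0/1.6 against the same LeGO-GFP arrays, 201 of the 2661 were higher and 1670 lower, with a median of -0.92. These are 7.55% and 62.8%, beside 14.5% and 15.8% of all probes. Of the 2795 lowered, 0 were called higher and 10 lower in LeGO-DCR (0.358%), and the looser rule was met by 7 higher (0.250%) and 59 lower (2.11%, beside 0.803% of all probes), with a median of -0.02. The 10 became 2 to 5 without any 1 of the LeGO-DCR arrays or of LeGO-1.0/1.6 replicates 2 and 3, and 0 with the trended prior. With normexp the 59 became 3 of 1371 (0.219%, beside 0.305% of all probes), so the share no longer exceeded that of all probes. Among probes well above background on all arrays of at least 1 lentivirus group, the 59 became 31 of 2276 (1.36%, beside 0.920%). With the t-test of the methods they became 37 of 2795 (1.32%, beside 0.555%). Of those 59, 11 were well above background on all LeGO-GFP and LeGO-DCR arrays, and the hormone comparison is the one that slides 1 and 2 divide unevenly, as given above. In LeGO-1.0/1.6, 1592 of the 2795 were higher than in LeGO-GFP and 276 lower, with a median of 0.73. These are 57.0% and 9.87%, beside 14.5% and 15.8% of all probes. A narrower set was well above background on all LeGO-GFP and LeGO-DCR arrays. There the interval of LeGO-DCR minus LeGO-GFP lay within 2-fold for 1890 of 2027 raised and 1765 of 1866 lowered probes.

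Probes that respond to loss of mPINC were chosen on the siRNA +LH arrays. Between siPINC1.0/1.6 and siNEG, 1638 were higher (2.94%) and 1295 lower (2.33%) at an adjusted p below 0.05. In LeGO-DCR against LeGO-GFP, 0 probes of either set were called by limma, with medians of -0.01 and 0.01. At an unadjusted p below 0.05 there were 86 of the raised (5.25%) and 50 of the lowered (3.86%), beside 4.52% of all probes. The looser rule was met by 1 higher and 3 lower of the 1638 (0.0611% and 0.183%). Of the 1295, 5 higher and 1 lower met it (0.386% and 0.0772%). Over all probes the shares were 0.291% higher and 0.803% lower. In LeGO-1.0/1.6 against LeGO-GFP, 1076 of the raised were higher and 307 lower (65.7% and 18.7%). Of the lowered, 842 were lower and 126 higher (65.0% and 9.73%). Over all probes 14.5% were higher and 15.8% lower. Of these sets, 1557 of the raised and 1197 of the lowered were well above background on all LeGO-GFP and LeGO-DCR arrays. Over all 24787 such probes, LeGO-1.0/1.6 against LeGO-GFP called 14210. The study also lists 181 probes that moved one way with knockdown and the other with overexpression, chosen on these arrays but not on LeGO-DCR. Of them 0 were called by limma (14 at an unadjusted p below 0.05) and 0 met the looser rule between LeGO-DCR and LeGO-GFP, and the median size of the difference was 0.09 (range -0.58 to 0.56), against 1.80 in LeGO-1.0/1.6. The interval lay within 2-fold for 175 of the 181 and within 1.4-fold for 139. Directly against LeGO-1.0/1.6, 138 of the 181 were higher in LeGO-DCR and 42 lower, beside 15.1% and 14.5% of all probes.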

How the data were processed

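RNA from HC11 cells was hybridised by the authors to 24 one-colour Agilent mouse arrays (Cy3) and scanned with Feature Extraction 11.0.1.1 (build mm9). The deposited intensity of each spot is gProcessedSignal, which the software corrects for background. The deposited table of the series holds log2 values that the authors normalized, and was an alternative here. Per the methods, the authors quantile normalized the arrays and applied a two-sided t-test. Here, log2(gProcessedSignal) of non-control spots was quantile normalized over the 24 arrays, spots marked as outliers were dropped, and spots of a probe were averaged. limma 3.58.1 (R 4.3.3; lmFit, eBayes) was fitted to the 9 lentivirus arrays, and p-values were adjusted by Benjamini-Hochberg over 55681 probes. The siRNA contrasts came from a fit to the siRNA arrays. Symbols came from RefSeq for 26161 probes and from the study's tables for 455; 29065 had none. The brightest probe stood for a gene in the lists and among the genes named by size; called probes are given as called, whichever probe of their gene they are.

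Genes were named by rule: up to 12 of the largest rises and falls between LeGO-DCR and LeGO-GFP and 6 each against LeGO-1.0/1.6, among non-overlapping probes well above background on all arrays of a group, called ones first and then those at p below 0.01 and fold over 1.4, together with mPINC and the lists of genes named by the study, PRC2 and neighbours. The members and lists were chosen with earlier results of these data known. The fit was tested on simulated data. Precision is limited by 3 arrays a group. Alternatives were the normalization, background correction, probe filter, test, prior, arrays fitted, slide, replicate number and leaving out each array. Same-numbered samples of the lentivirus groups had correlations of their deviations from -0.04 to 0.15 over 9 pairs, so the numbers were not taken as pairs.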

Additional observations from a re-analysis of the deposited data

How the results depend on the processing

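The count of 41 probes called between LeGO-DCR and LeGO-GFP depended on the processing. It was 6 with scaling to the 75th percentile, 25 with quantiles over the 9 lentivirus arrays, 79 with normexp background correction, 27 with the 6 compared arrays alone, 18 with all 24 arrays and 1 with the deposited table. The methods' t-test gave 1 after Benjamini-Hochberg and 398 at its own threshold. limma with a trended and robust prior gave 0 (2554 at an unadjusted p below 0.05), and with the replicate number as a block 0 (2556). Leaving out 1 array gave 9 to 69: 69 without LeGO-GFP replicate 2, 17 and 20 without LeGO-1.0/1.6 replicates 2 and 3, and 15, 12 and 9 without LeGO-DCR replicates 1, 2 and 3. Similar counts did not mean the same probes. Of the 41, 24 were also called with quantiles over the 9 lentivirus arrays, and 15 with normexp. With the 6 compared arrays 10 were called again, with all 24 arrays 7, and with the t-test 0. Leaving out 1 array kept 8 to 30 of them. The 41 probes changed sign under none of the 22 alternatives. Every alternative uses arrays that chose these probes, so unchanged signs are not independent support. Tnfrsf13b was called in 16 of the 22 alternatives, Ctsw in 14, Banp in 7, Ephx4 in 6 and Gulo in 5. Tas1r1 was called in 2, and Cyp2c67, Olfr545 and Fam205a2 in 1 each. The fit within slide 3 and the fit without LeGO-GFP replicate 1 are the same fit, counted under both names.

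The 609 probes at p below 0.01 and fold over 1.4 became 181 with normexp and 398 with the t-test. They became 336 among bright probes, those well above background on all arrays of at least 1 lentivirus group. The 10 hormone-responsive calls became 1 (75th percentile), 6 (normexp, bright probes, or the 6 arrays) and 0 (t-test, trended prior, replicate block, deposited table), and 2 to 14 when 1 array was left out, 5 without LeGO-1.0/1.6 replicate 2 or 3 and 3, 2 and 4 without LeGO-DCR replicates 1, 2 and 3. The 59 hormone-lowered probes became 3, 31 and 37 with normexp, bright probes and the t-test. The knockdown-responsive count of 0 became 2 (normexp), 3 (24 arrays with slide) and 1 (within slide 3). It was 0 to 1 when 1 array was left out. The 1 came without LeGO-GFP replicate 1, which is the same fit as within slide 3. The counts against LeGO-1.0/1.6 stayed within 1.5 times under every alternative, without a check of which probes they held; the 12 genes named from them and the mPINC probe kept their calls, and the count among the 181 probes of the study's list stayed 0. The replicate block changed no other of these counts by over 1.5 times. The cause of these shifts was not tested.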
